A study of Mus musculus with 84 samples.

Results

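The genes described here were 36 transcripts of lymphocytes and of antigen presentation, followed in epididymal white adipose tissue (eWAT) and liver of obese mice treated with BI456906 or semaglutide. They were chosen with earlier results of these data known. By gene name, they were taken from the deposited tables as 36 of 48794 Ensembl gene identifiers. In the text they are grouped as 14 T cell genes, 5 natural killer (NK) and cytotoxic genes, 8 B cell genes, 7 genes of major histocompatibility complex (MHC) class II presentation and 2 dendritic cell genes. The animals were male C57BL/6J mice made obese with a 60% fat diet, 22 weeks old at the start and housed singly. After randomisation by body weight, each mouse was injected subcutaneously every day for 30 days. The injections held a mannitol-containing phosphate buffer (vehicle), semaglutide at 20 or 100 nmol/kg, or BI456906 at 1 of 4 doses (3, 10, 20 and 30 nmol/kg). BI456906 is a peptide that activates the glucagon receptor and the glucagon-like peptide-1 (GLP-1) receptor, and semaglutide activates the GLP-1 receptor alone. Each of the 7 groups had 6 libraries per tissue, each made from a small piece of tissue. All groups, vehicle included, shared the diet, so no lean reference is part of the comparisons.

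CD4 T cells read peptides that antigen-presenting cells display on MHC class II molecules, which are dimers of an alpha and a beta chain. The invariant chain (Cd74) escorts new dimers and blocks their groove, H2-DM exchanges the remaining fragment for peptides, and the coactivator Ciita switches the genes on together. In obese fat and liver these genes are carried mainly by macrophages, dendritic cells and B cells, whereas CD3 chains, immunoglobulin chains and granzymes belong to T cells, B cells and cytotoxic lymphocytes.

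As background, Ciita acts on class II genes through a shared X-Y module in their start regions. The grouping of these genes came from the list of names and not from their sequences. The windows below are the 250 bases before the annotated start in RefSeq, build GRCm38.p6, on the strand of the gene. Capitals mark the X box core TAGCAAC with at most 1 mismatch and the Y box core GATTGG, on either strand.
H2-Aa: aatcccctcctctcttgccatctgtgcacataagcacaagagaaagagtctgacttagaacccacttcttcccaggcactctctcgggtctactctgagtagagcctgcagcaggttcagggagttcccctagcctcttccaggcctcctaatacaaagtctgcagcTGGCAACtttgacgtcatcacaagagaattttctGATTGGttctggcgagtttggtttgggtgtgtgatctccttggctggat
H2-DMb1: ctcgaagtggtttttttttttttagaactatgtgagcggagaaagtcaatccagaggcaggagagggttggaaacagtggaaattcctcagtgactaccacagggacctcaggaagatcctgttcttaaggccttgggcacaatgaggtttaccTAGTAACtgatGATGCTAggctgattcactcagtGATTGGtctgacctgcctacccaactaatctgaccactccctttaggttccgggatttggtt
H2-Eb1: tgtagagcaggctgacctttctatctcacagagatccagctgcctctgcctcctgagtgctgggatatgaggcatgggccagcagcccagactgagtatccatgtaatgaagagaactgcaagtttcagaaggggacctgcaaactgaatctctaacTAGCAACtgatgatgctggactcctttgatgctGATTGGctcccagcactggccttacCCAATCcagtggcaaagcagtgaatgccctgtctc
H2-DMa: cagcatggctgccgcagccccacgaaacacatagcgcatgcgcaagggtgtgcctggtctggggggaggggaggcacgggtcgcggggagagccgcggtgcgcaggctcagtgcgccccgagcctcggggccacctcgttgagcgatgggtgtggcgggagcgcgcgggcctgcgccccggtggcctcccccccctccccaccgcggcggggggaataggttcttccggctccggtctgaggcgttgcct
These windows lie at chr17:34287824-34288073 (minus strand) for H2-Aa, chr17:34152941-34153190 (plus strand) for H2-DMb1, chr17:34305617-34305866 (plus strand) for H2-Eb1 and chr17:34122582-34122831 (plus strand) for H2-DMa. In H2-Aa, H2-DMb1 and H2-Eb1 an X core was followed on the same strand by a Y core, with 27, 27 and 26 bases between them. The X core of H2-Eb1 matched exactly, and the upstream start of H2-DMa, printed last, held neither core. The other H2-DMa start, not printed, held a Y core and no X core. Of 32841 windows of the same length, 0.475% held an X core with at most 1 mismatch followed within 30 bases by a Y core, 38.2% held such an X core anywhere and 14.6% a Y core. Of the 4 class II genes that had an entry, 3 held the arrangement. It was absent from the windows of 4 B cell, 5 NK and cytotoxic and 2 dendritic cell genes, and 1 of 10 T cell genes held it (Zap70). A match of letters is a description and not evidence of binding.

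Depth was 21676902 to 53869104 recovered reads per liver library and 37573004 to 53996914 per eWAT library. The shallowest liver libraries were semaglutide libraries 77 (20 nmol/kg, 21676902 reads) and 81 (100 nmol/kg, 30040261 reads), and all other liver libraries had at least 39049001 reads. The tissue labels matched their defining transcripts. The summed hepatocyte list had medians of 76235 to 99063 TPM by group in liver, and the adipocyte list had medians of 15734 to 29686 TPM in eWAT. TPM is a transcript level per length, scaled to the same total in every library. In such whole tissue samples, fewer cells of a type and less RNA per cell cannot be told apart. The 6 hepatocyte transcripts together were also seen in eWAT, at 22.2, 1692 and 6356 TPM (lowest, median and highest vehicle library) against 24.1, 114 and 1062 TPM at 30 nmol/kg BI456906, and their part in the results was not tested.

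A few eWAT libraries stood apart from the others, and libraries 1, 3 and 17 were picked after the data were seen. Libraries 1 and 3 of the vehicle group and library 17 of the 10 nmol/kg BI456906 group carried far more lymphocyte and class II transcripts than the others of their groups. Ighm, the heavy chain of IgM antibodies, was at 4447, 7167 and 3078 TPM in libraries 1, 3 and 17 and at 338 to 585 TPM in the other 4 vehicle libraries. Cd3e, a chain of the T cell receptor complex, was at 15.01 and 17.9 TPM in libraries 1 and 3 and at 0.88 to 3.31 TPM in the other 4. The MHC class II genes summed to 16446, 20313 and 13526 TPM in the 3 libraries and to 4997 to 6212 TPM in the other vehicle libraries. The sums of all 5 lists were thus high in the same libraries, although single genes such as Il7r and Cr2 were not.

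A list of lymph node stroma and follicle genes (8 genes, among them the chemokines Cxcl13 and Ccl21a) summed to 96.0, 88.9 and 51.9 TPM in libraries 1, 3 and 17 and to 10.1 to 25.2 TPM in the other vehicle libraries. It was higher in libraries 13, 31, 10 and 39 (209, 135, 114 and 108 TPM), whose Ighm was not near that of libraries 1 and 3, and lay at 41.8 to 78.2 TPM at 30 nmol/kg BI456906. Glycam1 and Madcam1, which mark lymph node vessels, did not pass 0.57 and 0.18 TPM in any eWAT library. Ccl21a had TPM values but 0 reads in every vehicle library, so its level is uncertain. The macrophage list was 13146, 14136 and 16505 TPM in libraries 1, 3 and 17 and 5224 to 11100 TPM in the other vehicle libraries. Because 2 of the 6 vehicle libraries are concerned, each eWAT comparison with vehicle is given with and without libraries 1, 3 and 17. The origin of their signal was not tested. Libraries 1 and 3 were picked for high values, so leaving them out moves eWAT fold changes against vehicle upward for the genes concerned. Library 22 (20 nmol/kg BI456906) also stood apart from its own group, at a lower level, with 1335 TPM of Ighm and a B cell sum of 1469.99 TPM against at most 345 TPM in the other 5, and 16 of its member genes passed Dixon's ratio, as many as in library 17. It is left out in a further fit beside the 20 nmol/kg result.

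**Figure D1:**
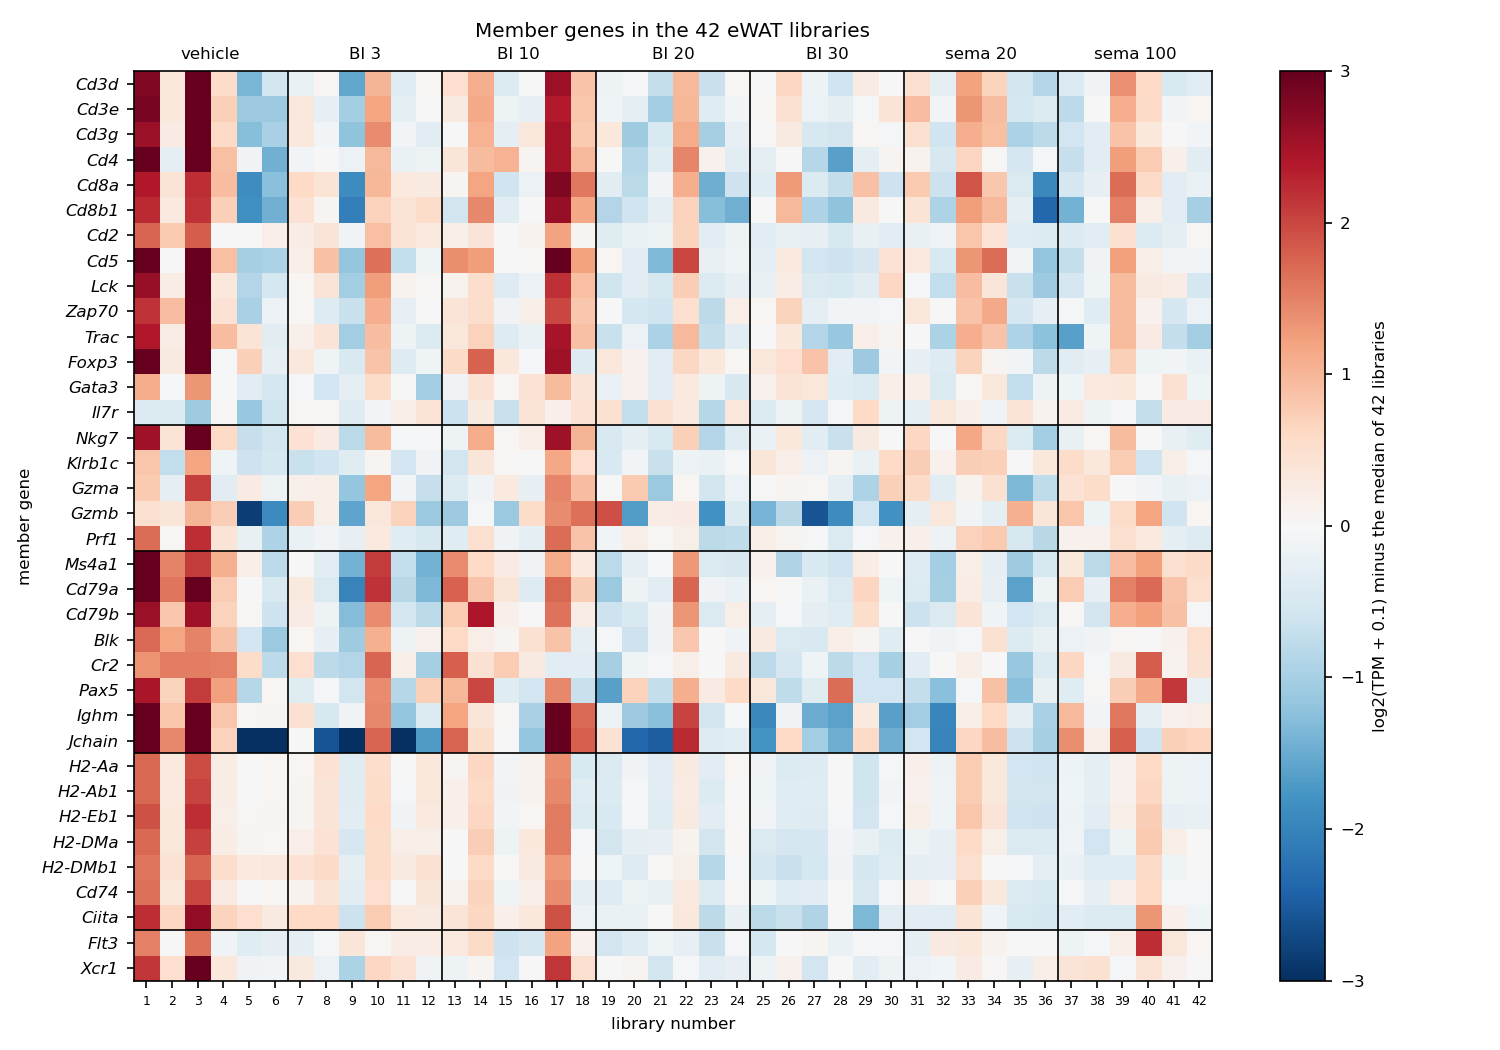
Level of the 36 genes (y axis) in each of the 42 eWAT libraries (x axis, by library number and group), as log2(TPM + 0.1) minus the median of the gene over the 42 libraries, red for higher and blue for lower. The columns of libraries 1, 3 and 17 are red over nearly all T, NK, B, class II and dendritic cell genes, with Il7r as an exception, and library 40 is reddest in Flt3 (9.55 TPM).

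In vehicle eWAT the invariant chain and the antigen-binding chains of class II had the highest medians of the members. Cd74 had a median of 2545 TPM, followed by H2-Aa (1232), H2-Ab1 (1098) and H2-Eb1 (939.9), the chains of the I-A and I-E dimers. The 6 libraries of H2-Aa, H2-Ab1 and H2-Eb1 overlapped, so their order is not separated by the spread. H2-DMb1 (124 TPM) and H2-DMa (71.4 TPM) stood lower and did not overlap the chains, and Ciita was at 12.3 TPM. The alpha chain gene of I-E, H2-Ea, is known to be defective in this strain and (listed as H2-Ea-ps) was at 0 TPM in all 7 groups.

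Lymphoid genes in vehicle eWAT were unequal in level. Ighm led with a median of 581 TPM and Il7r, the receptor for the survival cytokine interleukin 7, followed with 63.9 TPM and a range of 41 to 92.8 TPM. Jchain, which joins antibody units, had 53.1 TPM and a range of 0.94 to 711 TPM. The CD3 chains Cd3d, Cd3e and Cd3g had medians of 2.38, 2.91 and 5.00 TPM, and Trac, the constant part of the T cell receptor alpha chain, 7.27 TPM. Il7r did not follow the CD3 chains, since library 3, with the highest Cd3e, had 43.5 TPM of Il7r, the second lowest value of the group. Il7r was the largest single term of the T cell sum, which had a vehicle median of 127 TPM. Foxp3, the factor of regulatory T cells, was at 2.53 and 2.96 TPM in libraries 1 and 3 and at 0.13 to 0.35 TPM in the other vehicle libraries.

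Summed over each list, B cell genes in eWAT had medians of 649.5 TPM in vehicle, 284 at 3, 662 at 10, 289 at 20 and 129 at 30 nmol/kg BI456906, 238 at 20 and 413 at 100 nmol/kg semaglutide. Class II genes had medians of 6022, 5822, 5407, 4352 and 4205 TPM from vehicle to 30 nmol/kg BI456906, and 5052 and 4618 TPM at 20 and 100 nmol/kg semaglutide. The T cell sums stayed within 113 to 160.5 TPM as group medians and the NK and cytotoxic sums within 10.53 to 17.6 TPM. By vehicle medians, Il7r was the largest term of the T cell sum and Ighm that of the B cell sum. Each of these sums thus follows that gene more than any other of its list, and a steady T cell sum does not mean steady T cell genes. The B cell sum at 30 nmol/kg BI456906 (99.3 to 449 TPM) overlapped that of vehicle (346 to 7924 TPM), and the class II sum (3449 to 4927 TPM) lay below the lowest vehicle library (4997 TPM).

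**Figure D2:**
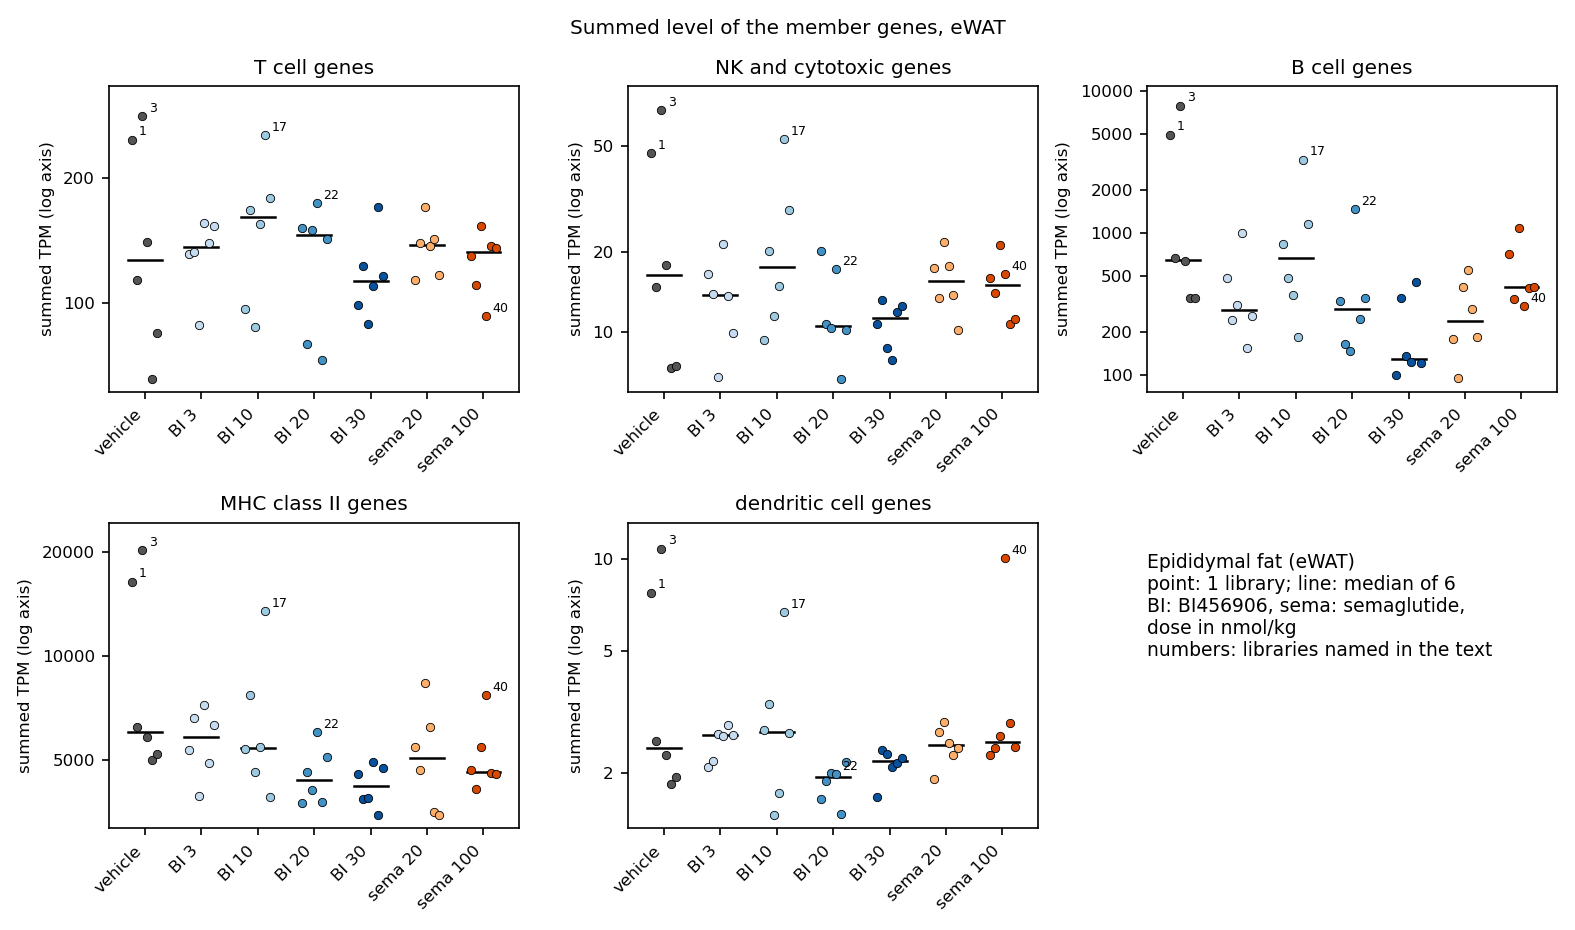
Summed TPM of the T cell, NK and cytotoxic, B cell, MHC class II and dendritic cell genes in eWAT (log y axis), 1 point per library and a line at the median of 6, with the 7 groups on the x axis and doses in nmol/kg. Libraries 1, 3 and 17 lie above the others of their groups in all 5 panels, and the class II sums at 30 nmol/kg BI456906 lie between 3449 and 4927 TPM.

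In eWAT at 30 nmol/kg BI456906, class II genes were lower than in vehicle and B cell genes showed the widest differences. All 7 class II genes and the dendritic cell gene Xcr1 fell, as did 5 of the 27 T, NK and B cell genes, while no member rose. Of all 18536 genes tested in eWAT, 13% were lower and 10.9% higher. A gene was called when its FDR, the Benjamini-Hochberg adjusted p of limma/voom over all genes of the tissue, was at most 0.05. The median log2 fold change was -1.01 over the T, NK and B cell genes and -1.05 over the class II and dendritic cell genes, against -0.03 over all genes tested. edgeR and DESeq2 each called 21 of the 27 T, NK and B cell genes lower, so the count of lymphoid genes depended on the tool, and each called 8 of the 9 class II and dendritic cell genes. Shares of all genes are those of limma/voom throughout. None is given for edgeR or DESeq2, so their counts have no background to be read against. With the added condition of at least a 2-fold change, 10 of 36 members were lower, against 4.07% of all genes. Without libraries 1, 3 and 17 the medians were 0.07 and -0.37, and 2 members were lower and 1 higher, with 9.09% lower and 9.48% higher among all 18839 genes tested.

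Among T cell genes in eWAT, Cd2, an adhesion receptor of T and NK cells, had 9.11, 12.995 and 31.8 TPM in vehicle (lowest, median, highest) and 6.44, 7.41 and 7.76 TPM at 30 nmol/kg BI456906. All 6 treated libraries were below all 6 of vehicle. It was the single lymphoid gene of which this held, and 2.9% of all genes tested in eWAT had all treated values below those of vehicle. The log2 fold change was -1.06 (SE 0.28, FDR 0.00643), and -0.51 (FDR 0.0917) without libraries 1, 3 and 17. Trac had 3.56, 7.27 and 38.5 TPM in vehicle and 1.98, 4.61 and 5.57 TPM at 30 nmol/kg, with overlapping groups and a log2 fold change of -1.47 (SE 0.52, FDR 0.0373). The other 12 T cell genes did not pass. Their log2 fold changes ran from -1.54 for Foxp3 (FDR 0.0808) to 0.47 for Il7r (FDR 0.154), with -0.77 (SE 0.56) for Cd3e, -1.32 (SE 0.68) for the co-receptor Cd4 and -0.55 (SE 0.72) for the co-receptor Cd8a. Without the 3 libraries no T cell gene passed and the median of the 14 turned from -0.83 to 0.22.

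No NK or cytotoxic gene passed in eWAT at 30 nmol/kg with all libraries. The same fit gave 0 of the 5 an unadjusted p under 0.05, beside 6776 of all 18536 genes. Gzmb, the protease granzyme B, was at 0.37, 4.34 and 6.66 TPM in vehicle and 0.45, 1.00 and 2.11 TPM at 30 nmol/kg (log2 fold change -1.25, SE 0.77, FDR 0.238). The vehicle libraries of Gzmb fell apart into 4 between 4.13 and 6.66 TPM and 2 below 1 TPM. Klrb1c, the NK receptor known as NK1.1, had 0.95, 1.31 and 3.88 TPM in vehicle and 1.44, 1.85 and 2.54 TPM at 30 nmol/kg. Its 2 highest vehicle values were libraries 1 and 3, and without libraries 1, 3 and 17 it rose (0.81 on the log2 scale, SE 0.26, FDR 0.0266). For Nkg7, Gzma and Prf1, which belong to cytotoxic granules, the log2 fold changes with all libraries were -0.98, -0.54 and -0.59, and 0.02, 0.01 and 0.21 without the 3.

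Of the 8 B cell genes in eWAT, Ighm, Cr2 and Ms4a1 fell at 30 nmol/kg BI456906. Ighm had 338, 581 and 7167 TPM in vehicle and 85.2, 112 and 403 TPM at 30 nmol/kg. Of its 6 treated libraries, 5 were below every vehicle library and library 29 was at 403 TPM. The log2 fold change was -2.75 (SE 0.67, FDR 0.00336), and -1.50 (FDR 0.0653) without libraries 1, 3 and 17. Cr2, the complement receptor of mature B cells, had 0.04, 0.545 and 0.60 TPM in vehicle and 0.02, 0.05 and 0.12 TPM at 30 nmol/kg, from 5 to 58 and 3 to 9 reads per library. Its log2 fold change was -2.05 (SE 0.55, FDR 0.0067). In contrast with Ighm, libraries 1 and 3 did not lead in Cr2, with 0.51 and 0.59 TPM beside 0.60 and 0.58 TPM in libraries 2 and 4, and its log2 fold change without the 3 libraries was -1.50 (FDR 0.064). Ms4a1, which encodes CD20, had 0.29, 1.54 and 5.19 TPM in vehicle and 0.26, 0.485 and 0.68 TPM at 30 nmol/kg (log2 fold change -1.55, SE 0.56, FDR 0.0399). The B cell receptor chains Cd79a and Cd79b, the kinase Blk and the B cell factor Pax5 had log2 fold changes of -1.46, -1.11, -0.74 and -1.23 (FDR 0.0716 to 0.144), and Jchain of -1.36 (FDR 0.423). Without the 3 libraries no B cell gene passed, and the median over the 8 was -0.43 in place of -1.41.

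The class II genes of eWAT moved together at 30 nmol/kg BI456906, and 6 of the 7 had all treated values below those of vehicle, beside 2.9% of all genes. Ciita had 9.54, 12.3 and 50.5 TPM in vehicle and 3.03, 4.66 and 7.78 TPM at 30 nmol/kg (log2 fold change -1.88, SE 0.37, FDR 0.000453). H2-DMb1, the beta chain of H2-DM, had 108.5, 124 and 299 TPM in vehicle and 55.7, 61.9 and 82.97 TPM at 30 nmol/kg (-1.28, SE 0.24, FDR 0.000209). In both, as in H2-Aa, H2-Ab1, H2-Eb1 and H2-DMa, all 6 treated libraries were below the lowest vehicle library. Libraries 1 and 3 were high in these genes, so leaving them out could not change this. H2-DMa is the partner chain of H2-DMb1. It had 61.03, 71.4 and 242 TPM in vehicle and 41.3, 43.7 and 55.1 TPM at 30 nmol/kg (-1.14, SE 0.29, FDR 0.00416).

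The antigen-binding chains of eWAT showed smaller ratios. H2-Aa had 1035, 1232 and 4006 TPM in vehicle and 685, 873 and 1029.8 TPM at 30 nmol/kg, a gap of a few TPM between the groups. The log2 fold changes of H2-Aa, H2-Ab1 and H2-Eb1 were -0.98, -1.0 and -1.05 (FDR 0.0107, 0.00958 and 0.0127). Cd74, at 2043 to 8319 TPM in vehicle and 1513 to 2070 TPM at 30 nmol/kg, overlapped in 1 treated library and had a log2 fold change of -0.95 (FDR 0.00966). Without libraries 1, 3 and 17, Ciita (-1.18, SE 0.27, FDR 0.00231) and H2-DMb1 (-0.81, SE 0.19, FDR 0.00227) stayed lower. H2-DMa had -0.52 (FDR 0.0677), and the class II median was -0.38 in place of -1.05. The 14 macrophage genes of a fixed list gave 0 called in either direction with all libraries, and their sum was 5224 to 14136 TPM in vehicle and 6498 to 13135 TPM at 30 nmol/kg. Of the 5 mesothelium genes, which mark the lining of the fat pad, 4 were higher at 30 nmol/kg (2 without libraries 1, 3 and 17), with a median log2 fold change of 1.47. Their sum was 9.5 to 129 TPM in vehicle and 58.8 to 194 TPM at 30 nmol/kg, and its part in the class II result was not tested.

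Of the dendritic cell genes in eWAT, Flt3, a growth factor receptor, had 1.52, 1.90 and 6.46 TPM in vehicle and 1.35, 1.91 and 2.10 TPM at 30 nmol/kg (log2 fold change -0.56, FDR 0.271). Xcr1, a chemokine receptor of cross-presenting dendritic cells, had 0.33, 0.52 and 4.34 TPM in vehicle and 0.21, 0.32 and 0.41 TPM at 30 nmol/kg (-1.35, FDR 0.0389). The vehicle values above 0.56 TPM for Xcr1 were those of libraries 1 and 3, and without libraries 1, 3 and 17 neither gene passed.

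**Figure D3:**
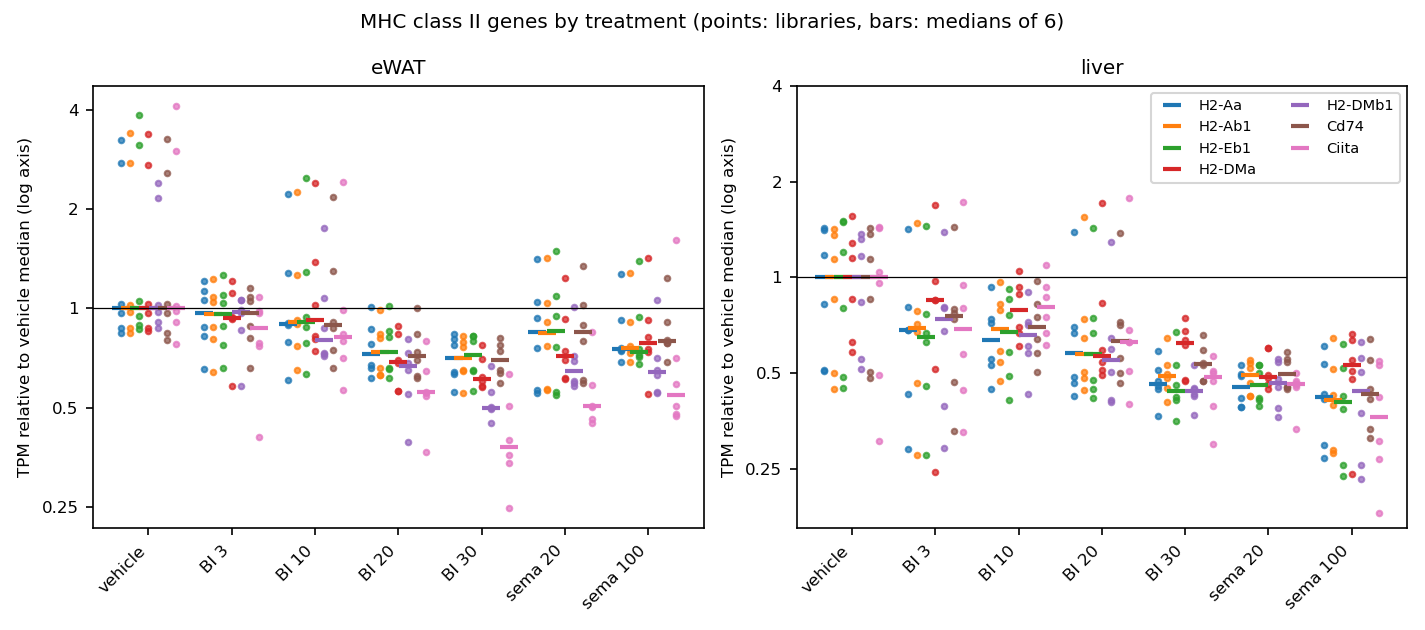
TPM of the 7 MHC class II genes divided by the median of the vehicle group of the same tissue (log y axis), in eWAT (left) and liver (right), with the 7 groups on the x axis, 1 point per library and a bar at the median of 6. In eWAT the points of libraries 1 and 3 lie far above the other vehicle points, and Ciita and H2-DMb1 at 30 nmol/kg BI456906 (3.03 to 7.78 and 55.7 to 82.97 TPM) lie below all vehicle points, while in liver the vehicle points spread into the treated range.

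Across the BI456906 doses in eWAT, class II genes were called from 20 nmol/kg on. At 3 and 10 nmol/kg limma/voom called no member, with 0% and 0.464% of all genes lower. At 3 nmol/kg 14 members and at 10 nmol/kg 1 member had an unadjusted p under 0.05, beside 1656 and 2891 of all 18536 genes. At these doses edgeR called none, and DESeq2 called 3 at 3 nmol/kg and none at 10 nmol/kg. With libraries 1, 3 and 17 left out, limma/voom again called no member at 3 or 10 nmol/kg, beside 0.0106% and 1.07% of all genes lower. An unadjusted p under 0.05 was then found for 1 and 2 members, beside 1633 and 2939 of all 18839 genes. At 20 nmol/kg H2-DMa (-1.01), H2-DMb1 (-1.08), Cd74 (-0.89) and Ciita (-1.41) fell, with FDR of 0.00721 to 0.0486, beside 2.91% of all genes. The count depended on the tool, with 19 members lower in edgeR and 28 in DESeq2, for which no share of all genes is given. Without libraries 1, 3 and 17, H2-DMb1 (-0.62, FDR 0.044) was the single member lower, beside 3.93%, and Ciita had -0.72 (FDR 0.112). Without libraries 9, 17, 22 and 40, those past Dixon's value, 10 members were lower, beside 3%, namely the 7 class II genes, Cd2, Trac and Ighm. Library 22 was picked for high values while libraries 1 and 3 stayed in, so this omission itself moves the genes concerned downward at 20 nmol/kg.

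H2-DMb1 had medians of 124, 121.5, 99.3, 82.9 and 61.9 TPM from vehicle to 30 nmol/kg, and Ciita of 12.3, 10.7, 10.0, 6.83 and 4.66 TPM.

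A linear trend over dose in eWAT was tested as the slope per 10 nmol/kg. In limma/voom the slope was negative for 10 members and positive for none, against 15.8% and 13.8% of all genes. edgeR called 25 and DESeq2 29 members negative, without a share of all genes for these tools. The 10 were the 7 class II genes, Cd2 (-0.32), Cr2 (-0.51) and Ighm (-0.71), and the steepest class II slopes were those of Ciita (-0.54, FDR 0.000342) and H2-DMb1 (-0.39, FDR 5.39e-05). Without libraries 1, 3 and 17, 7 slopes stayed negative, those of Ciita (-0.38), H2-DMb1 (-0.29), H2-DMa (-0.20), Cd74 (-0.14), H2-Ab1 (-0.14), Cd2 (-0.20) and Ighm (-0.43). Klrb1c then had a positive slope of 0.19 (FDR 0.0375), and the background was 11% falling and 13.6% rising. Without libraries 9, 17, 22 and 40 the slope was negative for 12 members, beside 17.4%, and leaving out library 22 favours negative slopes.

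For 100 nmol/kg semaglutide in eWAT, the share of members that limma/voom called lower was near that of all genes. Of 36 members 3 were lower and none higher, beside 9.42% and 5.48% of all genes. By at least 2-fold 1 was lower, beside 3.44%. edgeR called 16 and DESeq2 19 lower, without a share of all genes for these tools. The 3 were Cd2 (log2 fold change -0.91, FDR 0.0234), H2-DMb1 (-0.91, FDR 0.00834) and Ciita (-1.12, FDR 0.0257). No member had all 6 values below those of vehicle, against 2.21% of all genes. Ciita had 5.79, 6.71 and 19.8 TPM, and the highest value was that of library 40, in which Flt3 was also 9.55 TPM against 1.78 to 2.51 TPM in the other 5. The neutrophil list of library 40 summed to 519 TPM, with at most 33.8 TPM in any vehicle library. Without libraries 1, 3 and 17 no member was lower at 100 nmol/kg semaglutide and Klrb1c was higher (0.89, FDR 0.0158), with 11.1% lower and 6.32% higher among all genes.

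At 20 nmol/kg semaglutide, Ms4a1 (-1.89), Cd79a (-2.09), Ighm (-2.26), H2-DMb1 (-0.91) and Ciita (-1.44) were lower in eWAT, with FDR of 0.0104 to 0.046, beside 4.54% of all genes. edgeR called 19 and DESeq2 20 members lower, again without a share of all genes. After libraries 1, 3 and 17 were left out, limma/voom called no member lower (2 members, H2-DMb1 and Ciita, with an unadjusted p under 0.05) and Klrb1c higher (1.06, FDR 0.00698), beside 5.84% lower and 2.24% higher among all genes. An unadjusted p under 0.05 in either direction was found for 4054 of all 18839 genes. Ighm then had -1.02 (FDR 0.32) and Ciita -0.76 (FDR 0.0701). All these comparisons with vehicle share the 6 vehicle libraries, so their values are given side by side only.

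The compounds were compared directly in the same eWAT fit. Between 30 nmol/kg BI456906 and 100 nmol/kg semaglutide, which differ in dose as well as in compound, limma/voom called no member and 0.0108% of all genes. In that contrast 3 members had an unadjusted p under 0.05, beside 4567 of all 18536 genes, edgeR called none and DESeq2 called 1. The class II differences (BI456906 minus semaglutide) ran from -0.75 to -0.27 on the log2 scale, with a 95% interval of -1.51 to 0.01 for Ciita and of -0.83 to 0.26 for H2-Aa. The largest lymphoid differences were -2.03 for Gzmb (FDR 0.112), -1.59 for Cr2 (FDR 0.109) and -1.50 for Ighm (FDR 0.141), and the intervals leave sizeable differences possible. At the equal dose of 20 nmol/kg limma/voom, edgeR and DESeq2 each called 0 members between the compounds, beside 0% of all genes in limma/voom. There 1 member had an unadjusted p under 0.05, beside 815 of all 18536 genes.

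**Figure D4:**
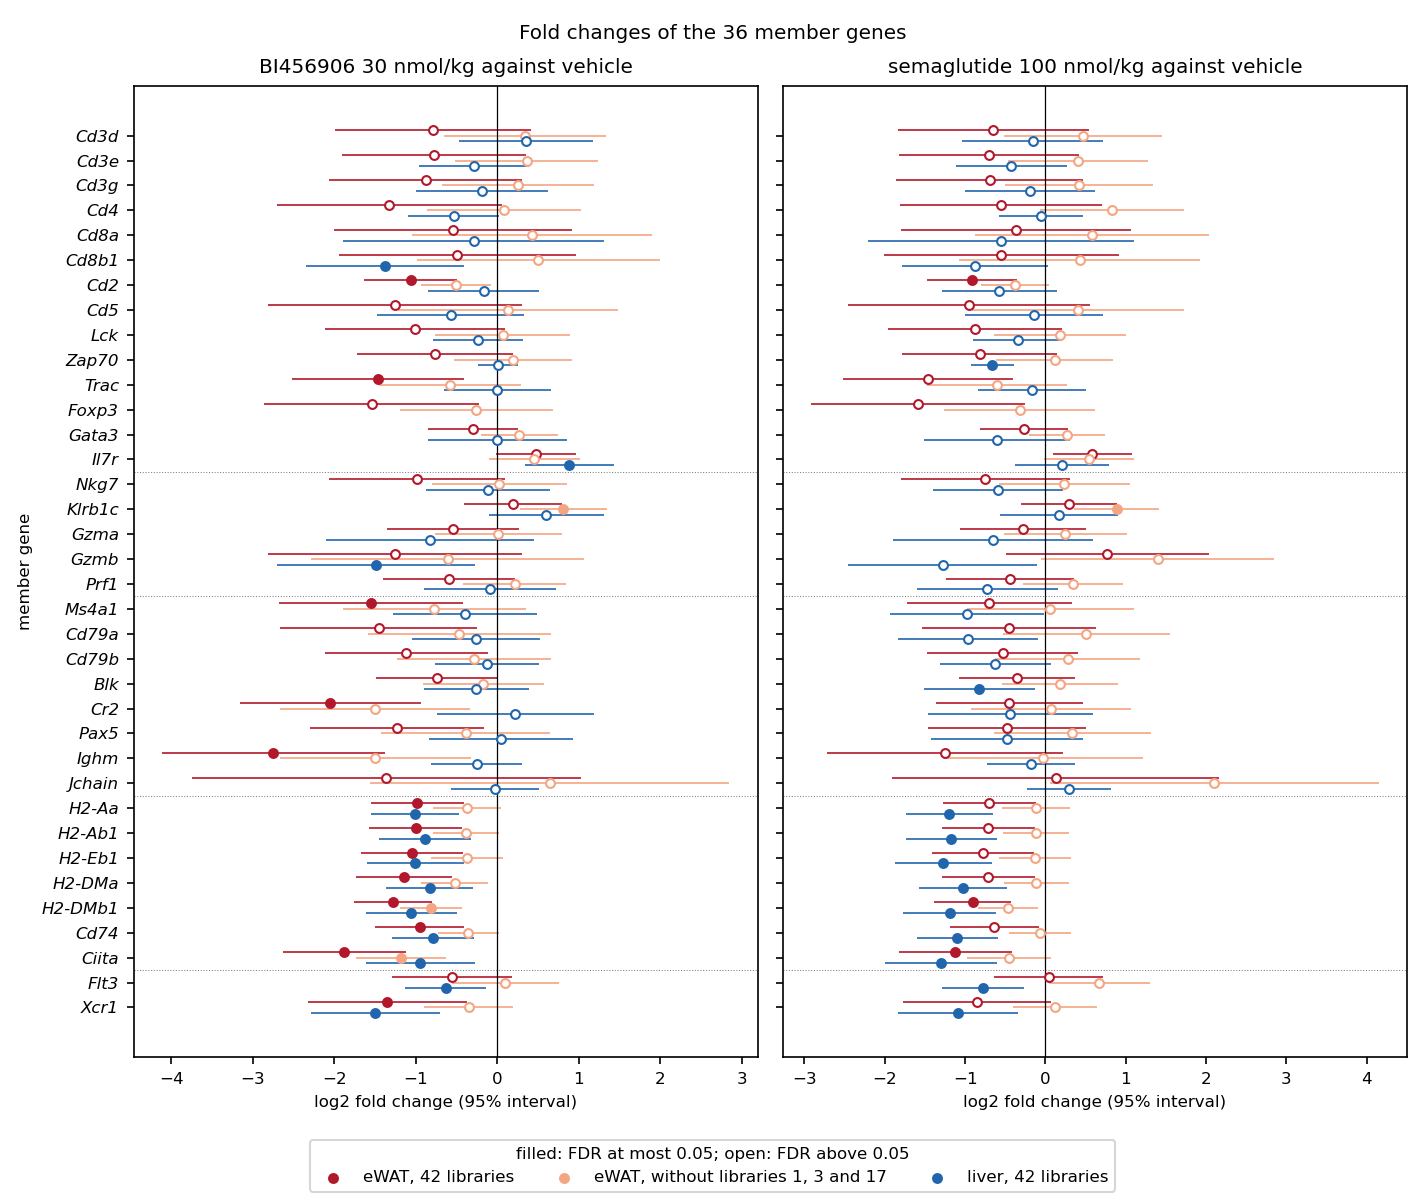
Log2 fold changes of the 36 genes against vehicle for 30 nmol/kg BI456906 (left) and 100 nmol/kg semaglutide (right), with 95% intervals. Red points are eWAT with 42 libraries, orange points eWAT without libraries 1, 3 and 17 and blue points liver, and filled points have an FDR of at most 0.05. In eWAT leaving out the 3 libraries moves the T cell median at 30 nmol/kg from -0.83 to 0.22, whereas Ciita and H2-DMb1 stay filled.

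Genes of the same pathways outside the 36 members were taken from fixed lists. At 30 nmol/kg BI456906 in eWAT, where 13% of all genes were lower, 3 of 21 further T cell genes were lower, a share near that of all genes, with Cd247, the zeta chain of the T cell receptor complex, at -1.11 and Themis, a T cell development factor, at -2.04. Of 14 further B cell genes 6 were lower, among them Fcer2a (-2.03) and Ighd (-1.72), the low-affinity IgE receptor and the IgD heavy chain, and of 9 plasma cell genes 2 were lower. Of 13 further NK and innate lymphoid genes 0 passed. No call rose in these lists. Without libraries 1, 3 and 17 the counts lower were 2 of 21, 2 of 14, 0 of 9 and 0 of 13, beside 9.09% of all genes.

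In the antigen presentation pathways of eWAT, 2 of 13 further class II pathway genes were lower, beside 13% of all genes and so near that share. They were H2-Ob (-1.35) and H2-DMb2 (-1.24), which belong to the same peptide-editing family as H2-DMa. The class I pathway, which serves CD8 T cells, had 8 of 15 genes lower, with B2m, the shared light chain, at -0.64, the heavy chain H2-K1 at -0.81 and the peptide-loading factor Tapbp at -0.40. Of 10 further dendritic cell genes 2 were lower, Batf3 (-0.98) and Clec9a (-1.29). Without the 3 libraries the class I count was 3 of 15 (B2m -0.31, H2-K1 -0.32, Tapbp -0.19), beside 9.09% of all genes. No gene was then lower in the class II pathway or dendritic cell lists, and 1 class II pathway gene (Rfxank, 0.20, chosen after its value was seen) was higher.

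Liver held less of every list. In vehicle liver the medians were 17.5 TPM for the T cell sum, 3.51 for NK and cytotoxic, 11.9 for B cell, 557 for class II and 0.64 TPM for dendritic cell genes. The tables of the tissues were normalised apart, so the levels stand side by side without a test. The largest T cell value in liver was Zap70, the kinase of the T cell receptor, with a median of 9.83 TPM beside 0.565 TPM for Cd3e. Ighm led the B cell genes with 8.08 TPM. Foxp3 did not pass 0.07 TPM in any liver library and was left out of the liver test, which covered 35 of the 36 genes.

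**Figure D5:**
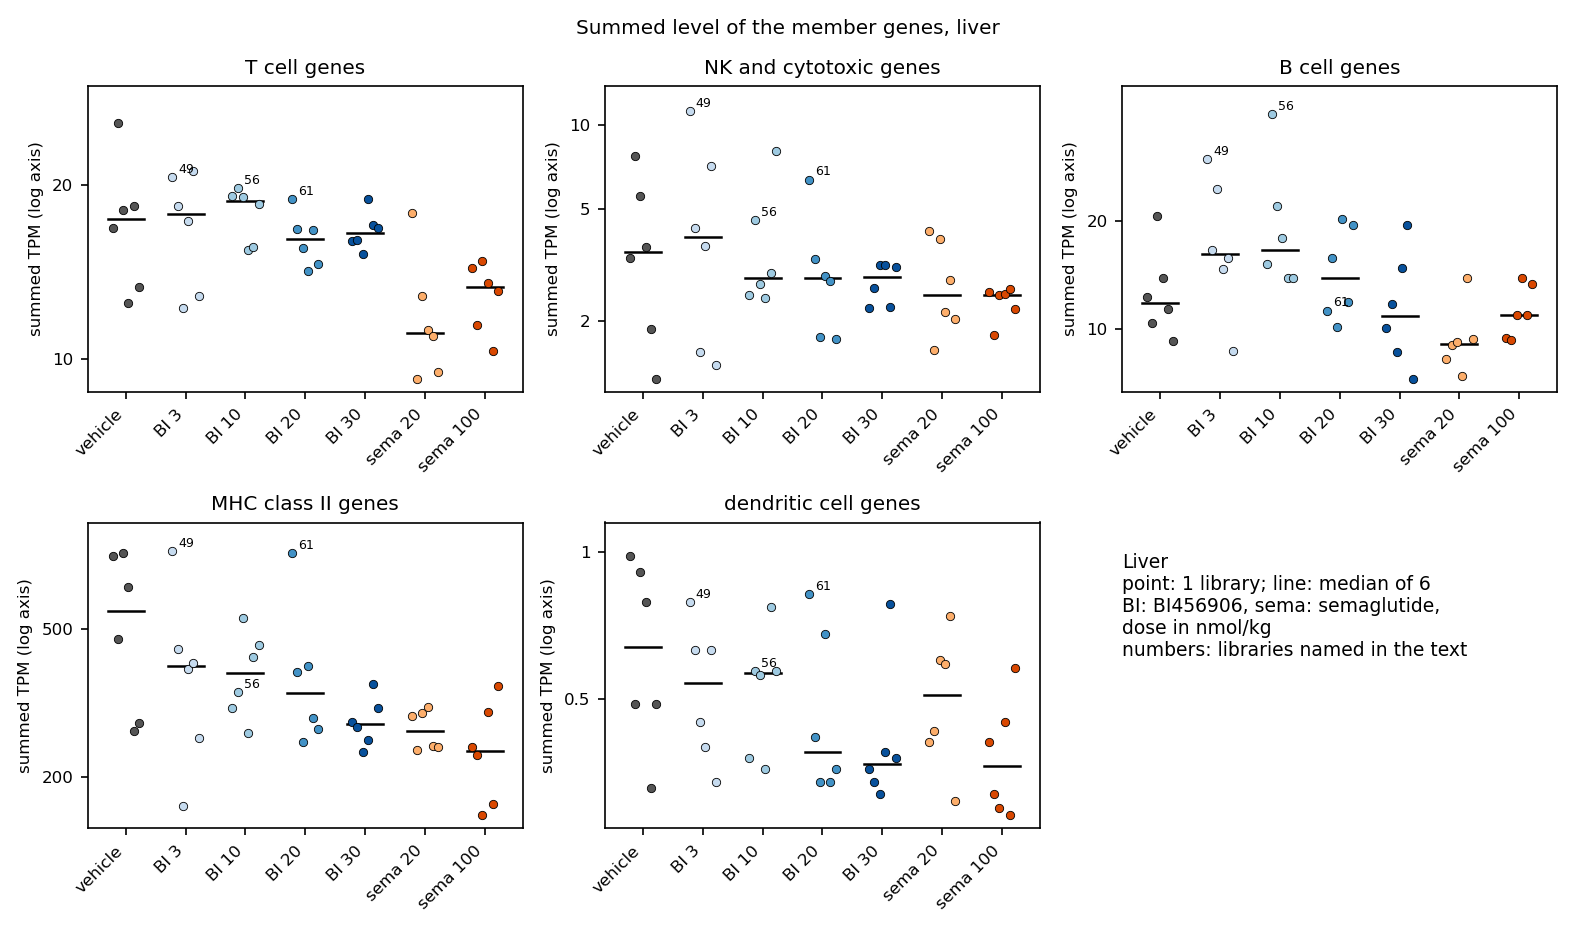
Summed TPM of the 5 gene lists in liver (log y axis), 1 point per library and a line at the median of 6, with the 7 groups on the x axis and doses in nmol/kg. The class II medians go from 557 TPM in vehicle to 277.5 TPM at 30 nmol/kg BI456906 and 235 TPM at 100 nmol/kg semaglutide, and the B cell panel shows 1 high library of 39.8 TPM at 10 nmol/kg BI456906.

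In liver at 30 nmol/kg BI456906, all 7 class II genes and both dendritic cell genes fell, whereas few lymphoid genes passed. Of the 26 T, NK and B cell genes tested, 2 were lower and 1 was higher, and of all 15964 genes tested in liver 29.9% were lower and 28.9% higher. The share of lymphoid genes called was below that background. The median log2 fold change was -0.18 over the lymphoid genes and -0.94 over the class II and dendritic cell genes, against -0.03 over all genes. With the 2-fold condition 6 of 35 members were lower, against 6.9% of all genes.

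H2-Aa in liver had 52.2, 103 and 147 TPM in vehicle and 37.6, 47.7 and 60.3 TPM at 30 nmol/kg BI456906. The vehicle libraries 43, 45 and 46 were at 121 to 147 TPM, library 44 at 84.7 TPM, and libraries 47 and 48 at 52.2 and 52.6 TPM, within the treated range. The log2 fold change was -1.01 (SE 0.27, FDR 0.00148). Ciita had 0.42, 1.38 and 1.98 TPM in vehicle and 0.41, 0.67 and 0.78 TPM at 30 nmol/kg (-0.94, SE 0.33, FDR 0.0132). In Ciita the same libraries 47 and 48 overlapped the treated group. H2-DMb1 had 5.36, 10.4 and 14.3 TPM in vehicle and 3.86, 4.58 and 5.54 TPM at 30 nmol/kg (-1.05, SE 0.28, FDR 0.00142).

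For H2-Ab1, H2-Eb1, H2-DMa and Cd74 in liver the log2 fold changes were -0.88, -1.01, -0.83 and -0.79, with FDR of 0.00356 to 0.0068. Cd74 had 118, 244 and 350.1 TPM in vehicle and 115, 130.2 and 160.2 TPM at 30 nmol/kg. No class II gene had all treated values below those of vehicle in liver, where 10.8% of all genes did. Pax5, a low B cell gene, was the single member with all TPM values of 30 nmol/kg (0.08 to 0.30) below those of vehicle (0.31 to 0.87), but its reads overlapped (13 to 56 against 23 to 51) and its log2 fold change from the counts was 0.05 (FDR 0.932). Xcr1 had 0.09, 0.18 and 0.25 TPM in vehicle and 0.02, 0.08 and 0.15 TPM at 30 nmol/kg, from 18 to 37 and 2 to 20 reads per library (-1.50, SE 0.39, FDR 0.00123). Flt3 had 0.24, 0.47 and 0.76 TPM in vehicle and 0.25, 0.305 and 0.63 TPM at 30 nmol/kg (-0.63, FDR 0.0269), with overlapping groups.

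Among the lymphoid genes of liver, Cd8b1, a chain of the CD8 co-receptor, fell from 0.11, 0.32 and 1.08 TPM to 0.07, 0.125 and 0.30 TPM at 30 nmol/kg (-1.38, SE 0.48, FDR 0.0133). These values rest on 6 to 48 reads per library in vehicle and 3 to 14 at 30 nmol/kg, and the groups overlapped. Gzmb fell from 0.18, 0.695 and 1.76 TPM to 0.10, 0.27 and 0.45 TPM (-1.49, SE 0.60, FDR 0.0313), again with overlap. Il7r rose from 0.14, 0.305 and 0.41 TPM to 0.41, 0.515 and 0.64 TPM (0.88, SE 0.27, FDR 0.00481), and the lowest treated library equalled the highest of vehicle at 0.41 TPM. The remaining 23 lymphoid genes had log2 fold changes from -0.83 for Gzma to 0.60 for Klrb1c, among them -0.29 (SE 0.33) for Cd3e, 0.00 (SE 0.32) for Trac, -0.26 (SE 0.39) for Cd79a and -0.25 (SE 0.27) for Ighm. Without library 44, the highest vehicle library for Cd8b1 and Gzmb, 1 lymphoid gene passed.

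At 100 nmol/kg semaglutide all 9 class II and dendritic cell genes were lower in liver, as were Zap70 and Blk, beside 24.1% of all genes lower and 24% higher. The class II log2 fold changes ran from -1.30 (Ciita, FDR 0.00217) to -1.03 (H2-DMa, FDR 0.00198). H2-Aa had 27.7, 43.4 and 62.8 TPM at this dose, overlapping the 2 low vehicle libraries. By at least 2-fold, 8 of 35 members were lower, beside 3.67% of all genes. None of the 35 had all 6 values below those of vehicle, against 5.51% of all genes. Zap70 had 6.96, 9.83 and 12.6 TPM in vehicle and 5.03, 6.85 and 7.50 TPM at 100 nmol/kg semaglutide (-0.66, SE 0.14, FDR 0.000121), and Blk a log2 fold change of -0.82 (FDR 0.0445).

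The lower dose of 20 nmol/kg semaglutide gave the same 7 class II genes lower (-1.08 to -0.91), with Zap70 at -0.70 (FDR 5.87e-05), Blk at -0.87 (FDR 0.0357) and Cd8b1 at -1.26 (FDR 0.0266), beside 23.5% of all genes lower. Zap70 had 4.72, 6.10 and 8.14 TPM in that group. Between the 2 semaglutide doses limma/voom, edgeR and DESeq2 each called 0 members in liver, beside 0% of all genes in limma/voom. There 1 member had an unadjusted p under 0.05, beside 482 of all 15964 genes.

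In liver the doses of BI456906 below 30 nmol/kg gave few calls. At 3 nmol/kg limma/voom, edgeR and DESeq2 called none of the members, beside 4.93% of all genes lower. In limma/voom 1 member had an unadjusted p under 0.05, beside 4573 of all 15964 genes. At 10 nmol/kg limma/voom called none beside 18.1%, and edgeR and DESeq2 each called 1 lower and 1 higher. In limma/voom 4 members then had an unadjusted p under 0.05, beside 7296 of all 15964 genes. At 20 nmol/kg Cd8b1 (-1.16, FDR 0.0391) and H2-DMb1 (-0.70, FDR 0.0286) were lower, beside 22.9%. The class II medians of liver were 557, 398, 379.7, 336 and 277.5 TPM from vehicle to 30 nmol/kg, and library 49 (3 nmol/kg, 806 TPM) and library 61 (20 nmol/kg, 795 TPM) were high.

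The slope over dose in liver was negative for 11 members and positive for 1, against 29.6% and 29.3% of all genes. Over all members the share falling was thus near that of all genes. The falling ones were the 7 class II genes (-0.28 to -0.20 per 10 nmol/kg on the log2 scale), Xcr1 (-0.43), Cd8b1 (-0.49), Cd4 (-0.22) and Gzmb (-0.51), and Il7r was the rising one (0.21, FDR 0.0155).

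Zap70 was the single member called in liver between 30 nmol/kg BI456906 and 100 nmol/kg semaglutide. It had 9.5, 10.4 and 12.8 TPM at 30 nmol/kg BI456906 and 5.03, 6.85 and 7.50 TPM at 100 nmol/kg semaglutide. The 6 libraries of each compound did not overlap, and BI456906 was not called against vehicle (log2 fold change 0.01, 95% interval -0.24 to 0.26). The difference, BI456906 minus semaglutide, was 0.67 on the log2 scale (95% interval 0.40 to 0.94, FDR 0.000957). With Zap70 alone called, the share of members was below the 9.75% of all genes. At the equal dose of 20 nmol/kg the difference was 0.67 (FDR 0.00282), with 9.63, 10.545 and 10.7 TPM for BI456906, and no other member passed, beside 2.42% of all genes. Against 20 nmol/kg semaglutide, 30 nmol/kg BI456906 was higher in Zap70 (0.71, FDR 0.000367) and Il7r (0.75, FDR 0.0497), beside 13.6% of all genes. For the CD3 chains of liver the differences between 30 nmol/kg BI456906 and 100 nmol/kg semaglutide were 0.51 for Cd3d, 0.14 for Cd3e and 0.00 for Cd3g (FDR 0.482 to 0.996), and whether they differed from that of Zap70 was not tested. In vehicle liver Zap70 lay far above Cd3e in TPM, and which cells its reads came from was not tested.

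The class II genes of liver did not separate the compounds in this test. Between 30 nmol/kg BI456906 and 100 nmol/kg semaglutide their differences ran from 0.14 to 0.36 on the log2 scale. The 95% interval was -0.36 to 0.73 for H2-Aa and -0.41 to 1.13 for Ciita, so differences of that size in either direction could not be told from none.

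In the wider pathways of liver at 30 nmol/kg BI456906 the counts stand beside 29.9% of all genes lower and 28.9% higher. In that setting 5 of 13 further class II genes were lower, among them Ifi30 (-0.68), a thiol reductase of antigen processing, and the protease Lgmn (-0.50). The class I list had 10 of 15 genes lower and 2 higher, with B2m at -0.45, H2-K1 at -0.50 and the immunoproteasome subunit Psmb9 at -1.34. Of 10 further dendritic cell genes 4 were lower (Cd209a -1.33) and 2 higher (Clec9a 0.54). Of 14 macrophage genes 4 were lower, among them Cd68 (-0.65) and Itgax (-1.45), and Mrc1 (0.72) was higher, so that the macrophage share lower was near that of all genes. The summed macrophage list was 365 to 677 TPM in vehicle and 316 to 481 TPM at 30 nmol/kg, and its part in the class II result was not tested.

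Of 19 further T cell genes tested in liver, 2 were lower and Cd28, a costimulatory receptor, was higher (1.16, FDR 0.000654), a smaller share in each direction than the 29.9% and 28.9% of all genes. Themis had the widest change, from 0.81, 1.58 and 1.93 TPM in vehicle to 0.03, 0.055 and 0.14 TPM at 30 nmol/kg BI456906 (-4.92, FDR 2.39e-08), with no overlap. It was at 0.04, 0.11 and 0.33 TPM at 100 nmol/kg semaglutide, also below all vehicle libraries. Cd3e was not called in liver at either of these doses, and which cells the Themis reads came from was not tested. Of the other lists, 2 of 11 NK and innate lymphoid genes (Xcl1 -1.87, Klrd1 -0.82) and 3 of 14 B cell genes were lower, and of 8 plasma cell genes 3 were lower and Sdc1 was higher (0.71).

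Whether the changes differed between the tissues was tested as an interaction over all 84 libraries. At 30 nmol/kg BI456906, Cr2 (eWAT minus liver -2.15, FDR 0.0135) and Ighm (-2.37, FDR 0.0191) differed, beside 38.4% of all 19249 genes tested, and no class II gene did. For H2-Aa the difference was 0.15 (95% interval -0.66 to 0.96) and for Ciita -0.80 (95% interval -2.06 to 0.46). Without eWAT libraries 1, 3 and 17 neither was called (Cr2 -1.76, FDR 0.0556, Ighm -1.31, FDR 0.135), beside 34% of all 19548 genes called. In that fit 2 members had an unadjusted p under 0.05, beside 8196 of all genes. At 100 nmol/kg semaglutide limma/voom called no member with all libraries, beside 27.5% of all genes. In that fit 1 member had an unadjusted p under 0.05, beside 7247 of all 19249 genes. Without the 3 libraries 7 members differed, a smaller share than the 26.3% of all genes. They were H2-Aa (0.996), H2-Ab1 (0.97), H2-Eb1 (1.06), Cd74 (0.96), Gzmb (2.67), Flt3 (1.39) and Xcr1 (1.17), with FDR of 0.0139 to 0.046. All 7 differences (eWAT minus liver) were positive, the direction in which leaving out high vehicle libraries of eWAT moves them.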

How the data were processed

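RNA sequencing of liver and eWAT was carried out in 84 libraries, 42 per tissue and 6 per group, from separate samples. Per the submitters' processing notes the reads were handled with STAR 2.5.2b, RSEM 1.3.0, featureCounts 1.5.1 and FastQC 0.11.5 on mm10/GRCm38. The library kit is described differently in the labels and in the study's methods, so strand use is not given here with certainty. The authors deposited gene counts divided by 1 size factor per library, which behave as a signal and not as raw counts, and TPM. Whole reads were recovered from the steps of the deposited scaled counts (100% of values whole within 0.01). In 10 libraries the step lay within 1.2% of 1. Depth, recovered this way, was 21676902 to 53869104 reads in liver and 37573004 to 53996914 in eWAT. No pair of libraries was identical.

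Each tissue was fitted on its own with limma 3.58.1 (voom, TMM factors and the expression filter of edgeR 4.0.16, prior count 0.5) in R 4.3.3 over all 7 groups, on the deposited scaled values, with Benjamini-Hochberg adjustment over all genes tested. The tests are two-sided. Their p-values set a difference between groups against a spread between samples that is shared by all groups of the fit, not that of the compared groups alone. A dose slope was fitted as well, and a tissue interaction on the recovered reads of all libraries. DESeq2 1.42.0 and the quasi-likelihood test of edgeR were run on recovered reads. Other alternatives were size factors, filters, log2(TPM + 1) and log2(TPM + 0.1), quality weights and libraries left out. Recovery by voom was tried on simulated counts for 30 nmol/kg BI456906 against vehicle. In eWAT voom recovered 86 of 100 genes with a 2-fold and 98 of 100 with a 4-fold change (18388 genes, 6 false calls). In liver voom recovered 91 and 99 of 100 (15854 genes, 8 false calls). For the 2-fold genes of eWAT, edgeR recovered 89 and DESeq2 91 of 100 (9 and 24 false calls). On the real eWAT libraries voom called 5 T, NK and B cell members, and edgeR and DESeq2 each called 21. The tools differed more there than on simulated counts, so the simulated rates do not give the power for the members.

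The 36 members and all gene lists were chosen with earlier results of these data known. All members are reported, and outside them at most the 3 genes of each list with the smallest p at 30 nmol/kg BI456906, plus genes set beside a result. H2-Ea and the genes of marker lists are such. Promoter windows came from RefSeq, and genes without an entry are not shown. The search for an X core followed within 30 bases by a Y core was added after the data were seen.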

Additional observations from a re-analysis of the deposited data

Results flagged for a closer look

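Libraries were compared within each group of 6 by Dixon's ratio (above its 95% critical value), on TPM for vehicle, 30 nmol/kg BI456906 and 100 nmol/kg semaglutide and on list sums for all groups. Chance alone marks about 1 in 20 groups. Over all members and groups, 100 of 504 (19.8%) passed on TPM and 50 (9.92%) on log2(TPM + 1).

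In eWAT at 100 nmol/kg semaglutide, library 39 stood above the other 5 in T cell and cytotoxic genes, with Cd8a at 4.67, Cd8b1 at 3.56, Cd5 at 1.66, Zap70 at 3.76, Foxp3 at 0.35 and Nkg7 at 11.13 TPM. Library 40 of the same group stood above the others in Cr2 (0.74), H2-Ab1 (1406.91), H2-Eb1 (1307.7), H2-DMb1 (131.82), Ciita (19.77) and Flt3 (9.55 TPM), and in the dendritic cell sum (10.07 TPM). The high signals of T cell and class II genes thus lay in different animals of that group.

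At 30 nmol/kg BI456906 in eWAT, library 26 was high in Zap70 (3.06 TPM), library 29 in Il7r (137.68), Cd79a (3.22) and Cd79b (5.07), and library 28 in Pax5 (1.57 TPM). In vehicle, library 3 was high in Gzma (6.44 TPM). Among list sums, library 9 at 3 nmol/kg was low for T cell genes (88.28 TPM), library 17 at 10 nmol/kg high for B cell (3295.2) and dendritic cell genes (6.69) and library 22 at 20 nmol/kg high for B cell genes (1469.99 TPM).

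In liver at 30 nmol/kg BI456906, library 70 was high in Cd8b1 (0.3), Blk (0.25) and Cr2 (0.26 TPM), and library 71 in Foxp3 (0.07), Jchain (1.96), Flt3 (0.63) and the dendritic cell sum (0.78 TPM). At 100 nmol/kg semaglutide, library 81 was high in Gata3 (1.49) and Klrb1c (0.56), library 84 in Cr2 (0.23) and library 82 in Pax5 (0.5 TPM). In vehicle liver, Nkg7 was 4 TPM in library 44 and Ighm 14.36 TPM in library 45. Library 61 at 20 nmol/kg BI456906 was high for the NK and cytotoxic sum (6.37) and the MHC class II sum (794.76), library 56 at 10 nmol/kg for the B cell sum (39.77) and library 77 at 20 nmol/kg semaglutide for the B cell sum (13.9 TPM).

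The changes of Cr2 and Ighm at 30 nmol/kg BI456906 differed between the tissues by the interaction test of limma, eWAT minus liver, with -2.15 and -2.37 on the log2 scale. The share of members called was below the 38.4% of all 19249 genes called in that test. Without eWAT libraries 1, 3 and 17 the test called neither gene (Cr2 -1.76, FDR 0.0556, Ighm -1.31, FDR 0.135), beside 34% of all genes.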

How the results depend on the processing

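For T, NK and B cell genes at 30 nmol/kg BI456906 in eWAT, 5 were called, 3 with no filter, 9 with quality weights, 21 with edgeR, 21 with DESeq2, and 1 (a rise) without libraries 1, 3 and 17. For class II and dendritic cell genes there, 8 were called and 2 without the 3 libraries. At 100 nmol/kg semaglutide in eWAT, 3 were called, 5 with quality weights, 9 without the libraries past Dixon's value, 16 with edgeR, 19 with DESeq2 and 1 (a rise) without the 3 libraries. Between the compounds in eWAT, 0 were called, 1 with DESeq2 and 3 with quality weights. For the eWAT slope, 10 were called, 25 with edgeR and 29 with DESeq2. In liver, the lymphoid count of 3 was 1 when 10 reads in every library were required, and the count of 1 between the compounds was 2 with quality weights. The count of 2 that differed between tissues at 30 nmol/kg BI456906 was 1 with 10 reads in every library and 0 without the 3. The count of 0 at 100 nmol/kg semaglutide was 7 without the 3 libraries. All 7 had a positive eWAT minus liver difference, the direction that the omission favours. The number of outlying values was 100 on TPM and 50 on log2(TPM + 1). No share of all genes is given for edgeR, DESeq2, quality weights or the other filters, so their counts have no background. The cause of these shifts was not tested. Pax5 in liver turned from 0.05 to -1.15 (FDR 0.0299) on log2(TPM + 0.1).

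With each library left out in turn (72 fits), the counts in eWAT ranged from 3 to 10 for lymphoid genes (3 without library 1, 3, 25, 27, 28 or 30 and 10 without library 6), from 4 to 8 for class II and dendritic cell genes (4 without library 3), from 1 to 7 for semaglutide (1 without library 1 or 3, 7 without library 4 or 40), from 0 to 0 between the compounds and from 9 to 13 for the slope. In liver they ranged from 1 to 4 for lymphoid genes (1 without library 44), from 8 to 9 for class II and dendritic cell genes, from 9 to 13 for semaglutide, from 1 to 2 between the compounds (2 without library 81) and from 11 to 15 for the slope. Both kinds of omission, of single libraries and of libraries 1, 3 and 17, were chosen after seeing the data. No paired analysis was possible because the library numbers are unique to 1 group and tissue. Members with few reads, such as Cr2, Xcr1 and Cd8b1, are limited by depth.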
